A study of Bos taurus with 12 samples.

Results

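The 10 genes described here cover the making of serine and asparagine and the stress factor that switches these enzymes on. PHGDH, PSAT1 and PSPH form the serine synthesis pathway, SHMT2 and MTHFD2 carry the serine carbon into mitochondrial one-carbon metabolism, ASNS makes asparagine, and ATF4 is the transcription factor, with DDIT3, TRIB3 and CHAC1 as 3 of its known stress targets. Each gene was taken as the array probe set that carries its symbol and no other. Where a symbol had several such probe sets, the one to be used was chosen by its highest mean signal over the 12 arrays. Each of the 10 genes had 1 probe set, so no measured value decided between probe sets. The 10 genes themselves were chosen with earlier results of these data known. ASNS and PHGDH are among the differentially expressed genes that the paper reports. The probe sets of the 10 genes are among 26773 in the table, of which 18457 carry a single gene symbol. All 10 passed the filter on low mean signal, which left 24415 probe sets for testing.

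Serine is built from a glycolytic intermediate in consecutive steps. PHGDH oxidises phosphoglycerate, PSAT1 transfers an amino group from glutamate, and PSPH removes the phosphate. SHMT2 then splits serine into glycine and a one-carbon unit that MTHFD2 oxidises for nucleotide synthesis, and ASNS amidates aspartate with glutamine as nitrogen donor. In mammalian cells short of amino acids, or with a stressed endoplasmic reticulum, kinases phosphorylate the initiation factor eIF2, general translation is lowered and the ATF4 message is translated more. ATF4 protein then induces the genes above together with amino acid transporters and aminoacyl-tRNA synthetases. ATF4 is thus controlled to a large extent at translation, which an array of RNA does not measure.

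Expanded bovine blastocysts produced in 4 ways were compared on Affymetrix Bovine Gene 1.0 ST arrays, with 3 arrays per group, each from a separate pool of blastocysts. VITRO blastocysts came from slaughterhouse oocytes that were matured, fertilised and cultured in vitro. IFOT stands for intrafollicular oocyte transfer, and the groups made with it are called transfer groups here. For IFOT-M, slaughterhouse oocytes matured in vitro were injected into the follicles of inseminated recipient heifers, so that fertilisation and development took place in the animal; the title and the methods call these follicles preovulatory, and one label calls them dominant. For IFOT-IM, immature slaughterhouse oocytes were injected into dominant follicles and also matured in the animal, and VIVO blastocysts were flushed from superovulated, inseminated heifers and served as the control. The VITRO, IFOT-M and IFOT-IM groups therefore share the slaughterhouse oocyte source, while VIVO differs from the other groups in oocyte donor and in superovulation, which cannot be told apart. The transfer groups also differ from VIVO in the injection into a follicle, which the paper names as a possible influence and which cannot be separated from these either. Recipients of injected oocytes also ovulated an oocyte of their own, so a pool from these groups may hold some embryos of the recipient.

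The values are log2 signals from robust multi-array averaging (RMA), on which 1 unit is a doubling. Median signals ranged over 1.95 to 1.97 on VITRO arrays, 1.84 to 1.86 on IFOT-M arrays, 1.86 to 1.93 on IFOT-IM arrays and 1.75 to 1.78 on VIVO arrays, and the standard deviation over probe sets was 1.50 to 1.54, 1.65 to 1.68, 1.55 to 1.64 and 1.73 to 1.75 in the same order of groups. IFOT-IM replicate 1, at 1.55, stood apart from the other arrays of its group. Bright probe sets were thus compressed in VITRO: over all 24415 probe sets the median log2 fold change against VIVO was 0.13 in VITRO, 0.05 with IFOT-M and 0.08 with IFOT-IM, but in the brightest 10% it was -0.66, -0.16 and -0.34 in the same order. Each fold change was therefore also computed after quantile and after cyclic loess normalization of the arrays, which force the arrays onto like distributions. The trophectoderm markers averaged 4.37 to 4.66 on VITRO arrays, 5.07 to 5.13 on IFOT-M arrays, 4.78 to 5.07 on IFOT-IM arrays and 5.11 to 5.45 on VIVO arrays. All 7 were called lower in VITRO against VIVO (4 after quantile and 3 after loess normalization), 2 in IFOT-M and 4 in IFOT-IM. Over all probe sets tested 22.7%, 6.87% and 12.6% fell in VITRO, IFOT-M and IFOT-IM. In VITRO 16.6% fell after quantile and 14.8% after loess normalization. The median log2 fold change of the 7 markers in VITRO was -0.80, beside -0.66 for probe sets of like brightness. Of the inner cell mass markers, SOX2 (-1.16) and POU5F1 (-1.09) fell and NANOG rose (1.12) in VITRO, and NANOG also rose in IFOT-IM (0.97). Cumulus and granulosa markers averaged 1.19 to 1.35, 1.10 to 1.23, 1.18 to 1.31 and 1.00 to 1.03 in the same order. Of these 7 markers 2 were called higher in VITRO against VIVO, LHCGR (0.32) and GREM1 (0.37). In IFOT-M 0 were called, and in IFOT-IM 1 was called higher, GREM1 (0.36). Over all probe sets tested 25.1%, 3.21% and 7.95% rose in VITRO, IFOT-M and IFOT-IM. After either other normalization 0 of the 7 were called in each of the 3 comparisons. Their mean signals lay between the 1.32 and 54.5 percentiles of the probe sets tested. Of 3 oviduct and uterine markers, PAEP (0.92) and MUC16 (0.43) rose in VITRO, and PAEP in IFOT-M (0.61) and IFOT-IM (0.73). The numbers called higher in VITRO, IFOT-M and IFOT-IM were 1, 0 and 0 after quantile and 1, 0 and 1 after loess normalization. In pooled embryos fewer cells of a type and less RNA per cell cannot be told apart, and the part of these markers in the results was not tested.

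**Figure D1:**
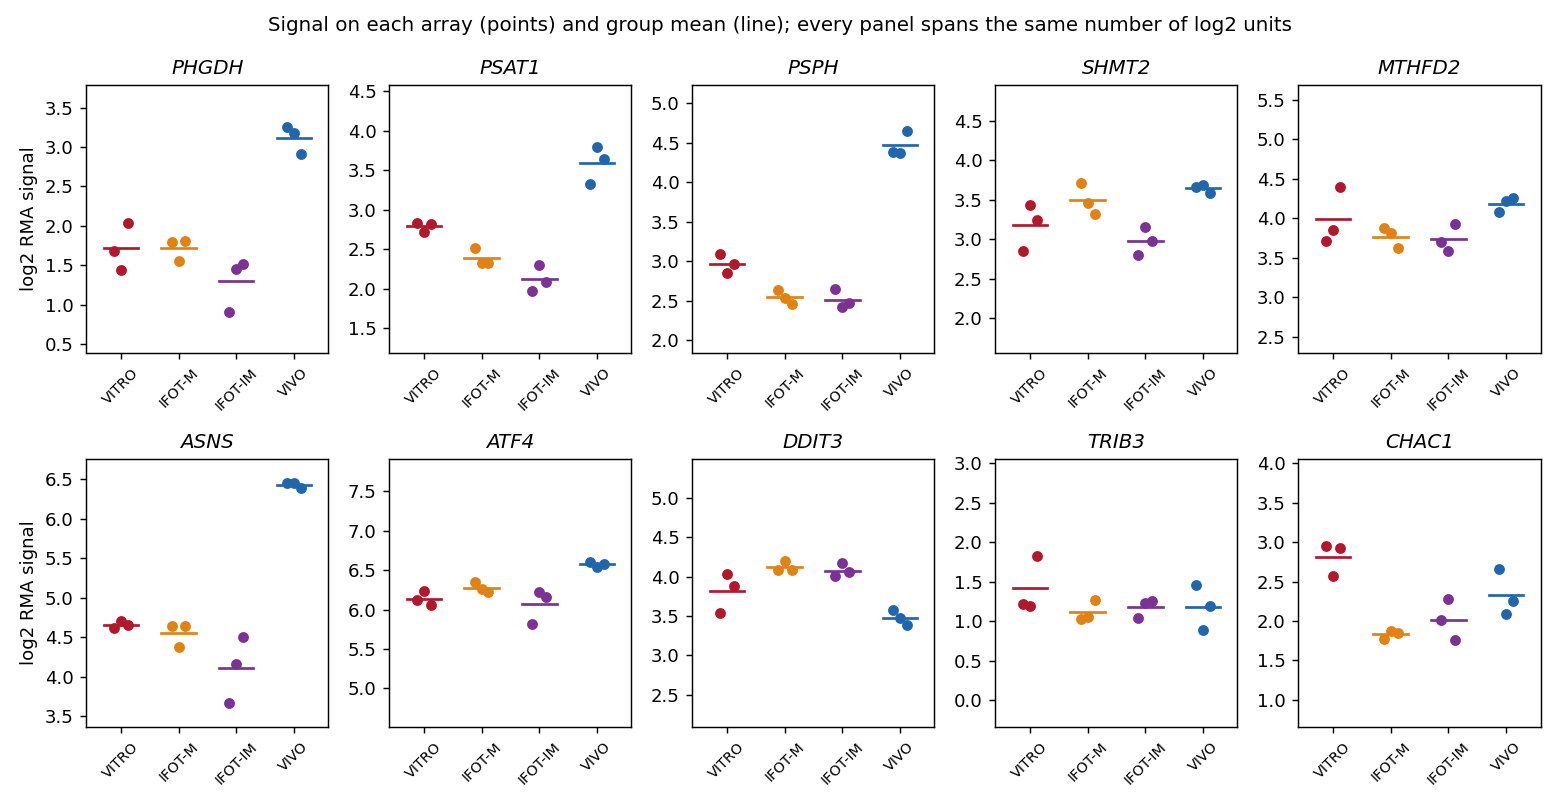
Log2 RMA signal (vertical axis) of each of the 10 genes in the 4 groups (horizontal axis), with 1 point per array and a line at the group mean of 3 arrays; every panel spans the same number of log2 units. By group means on the deposited scale VIVO was the highest for 7 of the 10 genes, as for 27.3% of all probe sets tested. DDIT3 had its lowest mean in VIVO. After quantile and loess normalization ATF4 averaged 0.05 and 0.25 higher in VITRO than in VIVO. The share of all probe sets with every VIVO array above all others, as for PHGDH, PSAT1, PSPH, ASNS and ATF4 here, was not counted.

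The serine and asparagine enzymes were lower in all 3 groups made from slaughterhouse oocytes than in VIVO, and by the widest margins for ASNS, PSPH and PHGDH. Of the 10 genes, 6 fell and 2 rose in VITRO against VIVO at a false discovery rate (FDR, limma) below 0.1, where 22.7% of all probe sets tested fell and 25.1% rose. In IFOT-M against VIVO, 4 fell and 1 rose, against 6.87% and 3.21% of all probe sets. In IFOT-IM against VIVO, 6 fell and 1 rose, against 12.6% and 7.95%. With the study's rule for differentially expressed genes, which adds a fold change above 2, 3 genes were lower in VITRO (5.71% of all probe sets), 4 with IFOT-M (0.901%) and 4 with IFOT-IM (2.02%). The median log2 fold change of the 10 genes was -0.45 in VITRO, -0.46 with IFOT-M and -0.59 with IFOT-IM. After quantile and loess normalization the VITRO median was -0.10 and -0.08, the IFOT-M median -0.38 and -0.39, and the IFOT-IM median -0.45 under both. The 3 comparisons share the VIVO arrays, so their likeness is not independent evidence. Because the 10 genes were chosen with earlier results of these data known, their counts beside the shares are not a test.

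**Figure D2:**
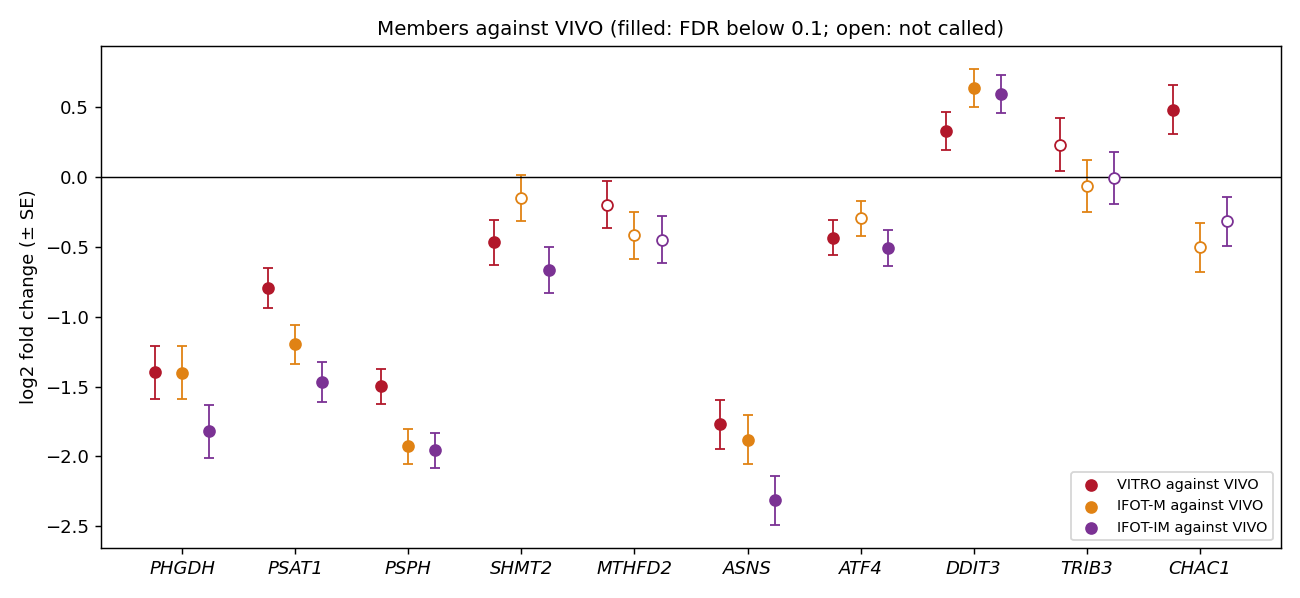
Log2 fold change (vertical axis, ± SE from limma) of each gene in VITRO, IFOT-M and IFOT-IM against VIVO, with 3 arrays per group; filled points have an FDR below 0.1. ASNS in IFOT-IM had the lowest value, -2.32, and DDIT3 was above 0 in all 3 comparisons.

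PHGDH, the first and committed enzyme of serine synthesis, read 1.68, 1.44 and 2.04 in VITRO, 1.79, 1.55 and 1.81 in IFOT-M, 0.91, 1.45 and 1.52 in IFOT-IM, and 3.26, 3.18 and 2.92 in VIVO. Every VIVO array was above every other array, and the VITRO and IFOT-M arrays interleaved. The mean signal of PHGDH was at the 48.7 percentile of the probe sets tested. Its means of 1.72, 1.72 and 1.30 in VITRO, IFOT-M and IFOT-IM lay below the array medians there, 1.84 to 1.97. The fold changes against VIVO therefore rest on dim signals in these groups. PHGDH fell 2.64-fold in VITRO against VIVO (log2 fold change -1.40, SE 0.19, FDR 2.01e-04), by the same amount in IFOT-M (-1.40, FDR 0.00155) and 3.53-fold in IFOT-IM (-1.82, FDR 1.69e-04). These changes went against the drift of probe sets of like brightness, whose median was 0.23 in VITRO, 0.08 with IFOT-M and 0.14 with IFOT-IM. The lowest array was IFOT-IM replicate 1, and without it the fall in IFOT-IM was -1.63 (FDR 7.43e-04).

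PSAT1, which makes phosphoserine, read 2.84, 2.72 and 2.82 in VITRO, 2.52, 2.33 and 2.32 in IFOT-M, 1.97, 2.30 and 2.08 in IFOT-IM, and 3.32, 3.80 and 3.65 in VIVO. No 2 groups overlapped, and the order of their levels was IFOT-IM, IFOT-M, VITRO and VIVO. The nearest arrays of IFOT-M and IFOT-IM read 2.32 and 2.30, and this pair of groups was not called (FDR 0.696). VITRO against IFOT-M had an FDR of 0.0804. All VITRO arrays were above IFOT-M for 15.3% of all probe sets and above IFOT-IM for 10.1%. All IFOT-M arrays were above IFOT-IM for 7.54%. Against VIVO the log2 fold change was -0.80 in VITRO (SE 0.14, FDR 0.00117), -1.20 with IFOT-M (FDR 6.51e-04) and -1.47 with IFOT-IM (FDR 9.98e-05). PSAT1 was therefore 1.74-fold lower in VITRO, 2.29-fold lower in IFOT-M and 2.77-fold lower in IFOT-IM.

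PSPH, the last enzyme of the pathway, read 3.09, 2.85 and 2.97 in VITRO, 2.64, 2.53 and 2.46 in IFOT-M, 2.64, 2.42 and 2.47 in IFOT-IM, and 4.38, 4.38 and 4.65 in VIVO. VIVO stood clear of all other arrays, VITRO lay between, and the 2 transfer groups overlapped. The log2 fold change against VIVO was -1.50 in VITRO (SE 0.13, FDR 1.23e-05), -1.93 with IFOT-M (FDR 1.56e-05) and -1.96 with IFOT-IM (FDR 8.49e-06). PSPH had the lowest p of all 24415 probe sets in IFOT-M against VIVO, ranked 2 in IFOT-IM against VIVO, and ranked 57 in VITRO against VIVO.

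ASNS, the only enzyme that makes asparagine from aspartate in mammals, had the lowest fold change among the 10 genes in VITRO and in IFOT-IM. Its signal was 4.62, 4.70 and 4.66 in VITRO, 4.64, 4.37 and 4.64 in IFOT-M, 3.67, 4.17 and 4.51 in IFOT-IM, and 6.45, 6.45 and 6.39 in VIVO. The VIVO arrays agreed closely and lay far above the rest, while IFOT-IM spread most, with a SD of 0.42 against 0.04 in VITRO, 0.15 in IFOT-M and 0.03 in VIVO. ASNS fell 3.41-fold in VITRO (log2 fold change -1.77, SE 0.18, FDR 3.06e-05), 3.68-fold in IFOT-M (-1.88, FDR 1.40e-04) and 4.98-fold in IFOT-IM (-2.32, FDR 1.98e-05). Ranked by the size of the fall, ASNS stood at 118 of 24415 in VITRO, and at 12 in both IFOT-M and IFOT-IM. Its fall in VITRO was smaller after quantile (-1.24, FDR 3.02e-04) and loess normalization (-1.11, FDR 2.96e-04). Probe sets of like brightness had a median of -0.66 there on the deposited scale. Without IFOT-IM replicate 1, the fall in IFOT-IM was -2.09 (FDR 5.01e-05).

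The falls of PHGDH, PSAT1, PSPH and ASNS against VIVO kept an FDR below 0.1 in all 3 groups under every alternative run, the 2 other normalizations included. In VITRO the value after quantile and loess normalization was -1.44 and -1.58 for PHGDH, -0.61 and -0.73 for PSAT1, and -1.18 and -1.27 for PSPH. In IFOT-IM it was -1.78 and -1.94 for PHGDH, -1.36 and -1.45 for PSAT1, -1.72 and -1.84 for PSPH, and -2.02 and -1.94 for ASNS.

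The mitochondrial one-carbon enzymes downstream of serine differed less. SHMT2, which converts serine to glycine in the mitochondrion, read 2.85, 3.43 and 3.25 in VITRO, 3.71, 3.46 and 3.32 in IFOT-M, 2.80, 3.15 and 2.98 in IFOT-IM, and 3.66, 3.68 and 3.59 in VIVO. All VITRO and IFOT-IM arrays lay below VIVO, and IFOT-M overlapped it. SHMT2 fell in VITRO (log2 fold change -0.47, SE 0.16, FDR 0.0402) and in IFOT-IM (-0.67, FDR 0.0179), and in IFOT-M its log2 fold change was -0.15 (FDR 0.668). The call in VITRO was lost after quantile (-0.20, FDR 0.433) and loess normalization (-0.16, FDR 0.492) and without VITRO replicate 1 (-0.30, FDR 0.149), while that in IFOT-IM held at -0.52 (FDR 0.0831) and -0.51 (FDR 0.0505). All VITRO pools had a lower RNA integrity number than every VIVO pool, and with that number as a covariate SHMT2 was at -0.37 in VITRO (FDR 0.212).

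MTHFD2, which oxidises the one-carbon unit, read 3.72, 3.85 and 4.39 in VITRO, 3.87, 3.81 and 3.62 in IFOT-M, 3.70, 3.59 and 3.92 in IFOT-IM, and 4.08, 4.21 and 4.26 in VIVO. Both transfer groups lay below VIVO on every array, and VITRO replicate 3 lay above it. The log2 fold change was -0.20 in VITRO (FDR 0.366), -0.42 with IFOT-M (FDR 0.184) and -0.45 with IFOT-IM (FDR 0.101), none of them called, and in VITRO it turned to 0.25 after quantile and 0.30 after loess normalization. Without VITRO replicate 3, MTHFD2 passed the threshold in all 3 comparisons, at -0.40 in VITRO (FDR 0.0497), -0.42 with IFOT-M (FDR 0.0805) and -0.45 with IFOT-IM (FDR 0.0389). In IFOT-IM it also passed without VITRO replicate 1 (FDR 0.0752), without IFOT-IM replicate 3 (-0.54, FDR 0.0822), with only IFOT-IM and VIVO in the fit (FDR 0.0660), with a stricter filter on dim probe sets (FDR 0.0714) and with array weights (FDR 0.0611). In IFOT-M it passed with only IFOT-M and VIVO in the fit (FDR 0.0596) and with array weights (FDR 0.0682).

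ATF4 itself read 6.12, 6.23 and 6.06 in VITRO, 6.35, 6.26 and 6.22 in IFOT-M, 5.82, 6.22 and 6.16 in IFOT-IM, and 6.61, 6.53 and 6.57 in VIVO. Every VIVO array was above every other array on the deposited scale. The message was 1.35-fold lower in VITRO (log2 fold change -0.43, SE 0.13, FDR 0.0178) and 1.42-fold lower in IFOT-IM (-0.51, FDR 0.0189), and in IFOT-M the log2 fold change was -0.29 (FDR 0.207). The mean signal of ATF4 was at the 96.7 percentile of the probe sets tested, and probe sets of like brightness had a median of -0.66 in VITRO, -0.16 with IFOT-M and -0.34 with IFOT-IM. In VITRO the direction turned after renormalization, to 0.05 with quantile (FDR 0.779) and 0.25 with loess (FDR 0.103), and in IFOT-IM the call was lost, at -0.22 (FDR 0.247) and -0.11 (FDR 0.586). Without IFOT-IM replicate 1, which was the lowest array, ATF4 fell by 0.38 in IFOT-IM (FDR 0.0673).

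The 3 stress targets of ATF4 had no common direction against VIVO. DDIT3, which encodes the transcription factor CHOP, induced under prolonged stress of the endoplasmic reticulum, read 3.53, 4.03 and 3.88 in VITRO, 4.08, 4.20 and 4.08 in IFOT-M, 4.002, 4.17 and 4.06 in IFOT-IM, and 3.58, 3.48 and 3.39 in VIVO. All arrays of both transfer groups were above VIVO, and VITRO replicate 1 fell within the VIVO range. DDIT3 rose 1.56-fold in IFOT-M (log2 fold change 0.64, SE 0.14, FDR 0.0163) and 1.51-fold in IFOT-IM (0.60, FDR 0.0128). In VITRO it rose by 0.33 (FDR 0.0713). With quantile and loess normalization the VITRO values were 0.67 and 0.82, the IFOT-M values 0.72 and 0.82, and the IFOT-IM values 0.77 and 0.86, all with an FDR below 0.1. The VITRO call on the deposited scale was lost without VITRO replicate 2 (0.22, FDR 0.229), VITRO replicate 3 (0.30, FDR 0.148), VIVO replicate 2 (0.33, FDR 0.140) or VIVO replicate 3 (0.29, FDR 0.190), with the integrity number as a covariate (0.39, FDR 0.126) and with only VITRO and VIVO in the fit (FDR 0.139).

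CHAC1, which degrades glutathione, read 2.95, 2.57 and 2.93 in VITRO, 1.77, 1.88 and 1.85 in IFOT-M, 2.02, 2.28 and 1.76 in IFOT-IM, and 2.66, 2.09 and 2.26 in VIVO. VITRO was high and IFOT-M low, and VIVO replicate 1 reached into the VITRO range. CHAC1 rose 1.40-fold in VITRO against VIVO (log2 fold change 0.48, SE 0.18, FDR 0.0470), and its log2 fold change was -0.50 with IFOT-M (FDR 0.120) and -0.32 with IFOT-IM (FDR 0.258). The VITRO call was lost with loess normalization (0.37, FDR 0.160), with the integrity number as a covariate (0.48, FDR 0.148), and without VITRO replicate 1 (0.41, FDR 0.126), VITRO replicate 3 (0.43, FDR 0.117), VIVO replicate 2 (0.36, FDR 0.171) or VIVO replicate 3 (0.44, FDR 0.123). In IFOT-M, CHAC1 passed with loess normalization (-0.55, FDR 0.0945), with only IFOT-M and VIVO in the fit (FDR 0.0839), with a stricter filter on dim probe sets (FDR 0.0803) and with array weights (-0.49, FDR 0.0635).

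TRIB3, a pseudokinase that restrains ATF4 in a feedback loop, gave a dim signal, with a mean at the 20.3 percentile of the probe sets tested. It read 1.22, 1.19 and 1.83 in VITRO, 1.02, 1.06 and 1.27 in IFOT-M, 1.04, 1.23 and 1.26 in IFOT-IM, and 1.46, 0.89 and 1.20 in VIVO. The groups overlapped, and the log2 fold change against VIVO was 0.23 in VITRO (FDR 0.328), -0.06 with IFOT-M (FDR 0.892) and -0.0043 with IFOT-IM (FDR 0.991).

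**Figure D3:**
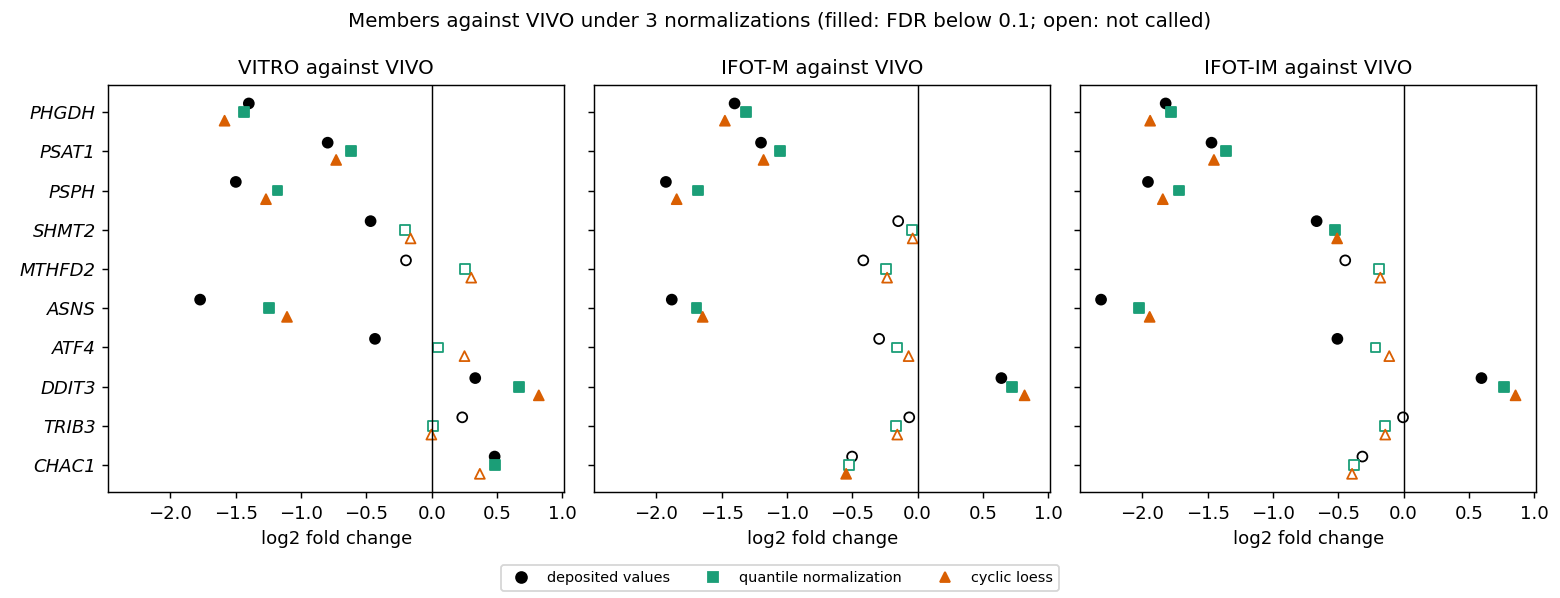
Log2 fold change (horizontal axis) of the 10 genes (vertical axis) against VIVO in VITRO, IFOT-M and IFOT-IM, from the deposited values (circles), after quantile normalization (squares) and after cyclic loess normalization (triangles); filled symbols have an FDR below 0.1. PHGDH, PSAT1, PSPH and ASNS stayed below 0 and filled in all panels, while ATF4 and MTHFD2 changed sign in VITRO.

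The direct comparisons between the groups from slaughterhouse oocytes show where they differ among themselves. In VITRO against IFOT-M, which differ in the environment after maturation, 3 genes were higher in VITRO and 0 were lower, where 8.38% of all probe sets were higher and 12.9% lower. CHAC1 was 1.98-fold higher in VITRO (log2 fold change 0.98, SE 0.18, FDR 0.00425), PSPH 1.35-fold (0.43, FDR 0.0400) and PSAT1 1.32-fold (0.40, FDR 0.0804), and for each all VITRO arrays lay above all IFOT-M arrays, as for 15.3% of all probe sets. CHAC1 kept its call in every alternative run. The PSPH call was lost without VITRO replicate 1 (0.37, FDR 0.107), IFOT-M replicate 2 (0.42, FDR 0.102) or IFOT-M replicate 3 (0.39, FDR 0.119). The PSAT1 call was lost without any single VITRO or IFOT-M array or VIVO replicate 3, with FDR values between 0.0627 and 0.188 over all left-out arrays, and also with array weights (0.40, FDR 0.119), the integrity covariate (0.34, FDR 0.215) or the replicate number as a block (FDR 0.1005). PHGDH averaged 1.72 ± 0.30 in VITRO and 1.72 ± 0.14 in IFOT-M (SD, n = 3 each), a difference of 0.0017 (SE 0.19, FDR 0.997), and ASNS differed by 0.11 (SE 0.18, FDR 0.706). ASNS passed only after loess normalization, at 0.54 (FDR 0.0469), as did ATF4 (0.32, FDR 0.0875), which stood at -0.14 on the deposited scale (FDR 0.487). MTHFD2, at 0.22 (FDR 0.411), passed after quantile (0.49, FDR 0.0944) and loess normalization (0.54, FDR 0.0645). DDIT3 was lower in VITRO on every array but was not called (-0.31, FDR 0.153), and without VITRO replicate 2 it was (-0.42, FDR 0.0754). SHMT2 was at -0.32 (FDR 0.212) and TRIB3 at 0.30 (FDR 0.308).

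In VITRO against IFOT-IM, which differ in the maturation and the later environment, 3 genes were higher and 0 lower, against 2.81% and 5.86% of all probe sets. CHAC1 was 1.74-fold higher in VITRO (log2 fold change 0.80, SE 0.18, FDR 0.0234), PSAT1 1.60-fold (0.67, FDR 0.0198) and PSPH 1.37-fold (0.46, FDR 0.0569), again with all VITRO arrays above the others, as for 10.1% of all probe sets. ASNS was higher on every VITRO array but missed the threshold (0.54, SE 0.18, FDR 0.1004), and passed after quantile (0.78, FDR 0.0218) and after loess normalization (0.84, FDR 0.0135). On the deposited scale it passed with a stricter filter on dim probe sets (FDR 0.0704), with robust and trended variance (FDR 0.0906) and without IFOT-IM replicate 3 (0.74, FDR 0.0469). The PSPH call was lost without VITRO replicate 1 (0.40, FDR 0.138), IFOT-IM replicate 2 (0.41, FDR 0.172) or IFOT-IM replicate 3 (0.44, FDR 0.160), and the CHAC1 call without IFOT-IM replicate 3 (0.67, FDR 0.102). With only these 2 groups in the fit, or with the integrity number as a covariate, none of the 3 calls was kept. The others were not called: PHGDH at 0.42 (FDR 0.226), SHMT2 at 0.20 (FDR 0.524), MTHFD2 at 0.25 (FDR 0.428), ATF4 at 0.07 (FDR 0.785; 0.36 and FDR 0.0866 after loess normalization), DDIT3 at -0.26 (FDR 0.293) and TRIB3 at 0.24 (FDR 0.501).

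In IFOT-M against IFOT-IM, which differ in whether maturation took place in vitro or in the follicle, limma called 0% of the probe sets in either direction and so none of the 10 genes. Over all probe sets 1855 had an unadjusted p below 0.05 and the smallest FDR was 0.321. Among the 10 genes PHGDH, SHMT2 and ASNS had an unadjusted p below 0.05. Their log2 differences, IFOT-M minus IFOT-IM, were 0.42 for PHGDH (SE 0.19, FDR 0.655), 0.52 for SHMT2 (SE 0.16, FDR 0.650) and 0.43 for ASNS (SE 0.18, FDR 0.654). The IFOT-M arrays lay above all IFOT-IM arrays for PHGDH, PSAT1, SHMT2 and ATF4, 4 of 10 genes, as for 7.54% of all probe sets. On the deposited scale, by group means, IFOT-IM was the lowest of the 4 groups for 7 of the 10 genes, PHGDH, PSAT1, PSPH, SHMT2, MTHFD2, ASNS and ATF4. VIVO was the highest for the same 7. Of all probe sets 12.8% were lowest in IFOT-IM, 27.3% highest in VIVO and 5.6% both. After quantile and loess normalization VITRO lay above VIVO for MTHFD2 (0.25 and 0.30) and ATF4 (0.05 and 0.25). IFOT-M then lay below IFOT-IM for MTHFD2 (-0.054 and -0.055), and after loess also for PSPH (-0.0012). The brightest 10% of probe sets had a median difference of 0.17, IFOT-M minus IFOT-IM.

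The genes whose profile over the 12 arrays was most like that of 2 of the enzymes were found as those with the smallest root mean square difference after each was centred on its VIVO mean. For ASNS these were TMEM59 at 0.218, CMC2 at 0.300 and PSPH at 0.333, where the median over 17552 other probe sets was 1.81. TMEM59 had log2 fold changes against VIVO of -1.88 in VITRO, -1.76 with IFOT-M and -1.99 with IFOT-IM. For PHGDH they were GARS1, the glycyl-tRNA synthetase, at 0.200, DLD, a lipoamide dehydrogenase shared by the glycine cleavage system and mitochondrial dehydrogenases, at 0.207, and ELOC, elongin C, at 0.231, against a median of 1.43. GARS1 had -1.41, -1.29 and -1.61 in VITRO, IFOT-M and IFOT-IM, close to the PHGDH values.

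Around these genes, further lists placed the changes in their pathway. These lists, too, were chosen with earlier results of these data known. Their counts stand beside the shares of all probe sets that fell and rose, which were 22.7% and 25.1% for VITRO, 6.87% and 3.21% for IFOT-M, and 12.6% and 7.95% for IFOT-IM. After quantile normalization 16.6%, 4.08% and 7.06% of all probe sets fell in the same order, and after loess normalization 14.8%, 5.12% and 7.79%. Of 23 other serine, glycine and one-carbon genes tested, from 26 listed, 10 fell and 2 rose in VITRO against VIVO, 5 fell and 1 rose in IFOT-M, and 5 fell and 1 rose in IFOT-IM, with median log2 fold changes of -0.23, -0.12 and -0.07. Probe sets of like brightness had medians of -0.23, -0.05 and -0.08, so the list medians in VITRO and IFOT-IM were near those values. In VITRO 6 fell and 0 rose after either other normalization. DLD fell in all 3 groups, with -1.59 in VITRO (FDR 7.66e-06), -1.31 with IFOT-M and -1.63 with IFOT-IM. The other leading genes were GNMT, a glycine methyltransferase, at -1.53, -0.65 and -1.18, MTHFD1L, which releases formate from the mitochondrion, at -1.32, -1.19 and -1.45, and AHCY, which clears S-adenosylhomocysteine, at -0.91, -0.67 and -0.88, each called in all 3 comparisons. These 4 were also lower, with an FDR below 0.1, under both other normalizations in all 3 comparisons.

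Of 9 other genes of asparagine, aspartate and glutamine metabolism tested, from 11 listed, 4 fell and 2 rose in VITRO, 1 fell with IFOT-M and 4 fell with IFOT-IM. The counts that fell were 3, 0 and 1 after quantile normalization. After loess normalization they were 2, 0 and 1, and 1 gene rose in VITRO. ASL, which splits argininosuccinate, was at -1.13 in VITRO (FDR 0.00391), -0.21 with IFOT-M and -0.30 with IFOT-IM, and only the VITRO value was called. GLUD1, glutamate dehydrogenase, fell in VITRO (-0.85, FDR 0.00160) and in IFOT-IM (-0.44, FDR 0.0916). The VITRO call held after quantile (-0.45, FDR 0.0186) but not loess normalization (-0.19, FDR 0.267), and the IFOT-IM call was lost under both. ASRGL1, an asparaginase, fell by 0.68 in VITRO, by 0.41 in IFOT-M (FDR 0.0537) and by 0.82 in IFOT-IM (FDR 8.05e-04). Its VITRO value was -0.16 after quantile and 0.01 after loess normalization, neither called, while the IFOT-IM call held at -0.51 and -0.42. The IFOT-M call was lost under both. ASS1, which makes argininosuccinate, rose in VITRO by 0.60 (FDR 0.0173) and was not called after quantile (0.41) or loess normalization (0.36).

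Upstream of ATF4, 10 of 17 genes for the eIF2 kinases, eIF2, its exchange factor eIF2B and its phosphatase subunits fell in VITRO and 1 rose, 4 fell with IFOT-M and 6 fell with IFOT-IM. The counts that fell were 7, 0 and 1 after quantile normalization, where 16.6%, 4.08% and 7.06% of all probe sets fell, and 4, 1 and 2 after loess normalization, where 14.8%, 5.12% and 7.79% fell. EIF2B2 was at -1.06 in VITRO, EIF2S2 at -1.05, EIF2AK4, the kinase that senses uncharged tRNA, at -0.94, and EIF2B5 at -0.85. EIF2AK4 also fell in IFOT-M (-0.51, FDR 0.0784) and IFOT-IM (-0.71, FDR 0.0103). All 4 kept their VITRO call after quantile normalization, with EIF2B2 at -0.51 and EIF2B5 at -0.45. After loess normalization EIF2S2 (-0.39) and EIF2AK4 (-0.42) kept an FDR below 0.1 in VITRO, and EIF2B2 (-0.39) and EIF2B5 (-0.36) did not. Of 5 other stress transcription factors tested, from 7 listed, 3 fell in VITRO, namely NFE2L2, the antioxidant regulator, at -1.23 (FDR 1.44e-04), CEBPG, a partner of ATF4, at -1.16 (FDR 1.48e-04) and NUPR1 at -0.44 (FDR 0.0635). NFE2L2 and CEBPG were also lower in IFOT-M (-0.98 and -0.79) and IFOT-IM (-1.18 and -0.996), and after both other normalizations in all 3 comparisons, whereas NUPR1 turned to 0.06 and 0.13 in VITRO.

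Downstream, 19 of 34 other known ATF4 targets tested, from 35 listed, fell in VITRO against VIVO and 1 rose, 16 fell with IFOT-M and 20 fell with IFOT-IM, with 0 rising in the last 2. Their median log2 fold changes were -0.51, -0.47 and -0.47, beside 0.13, 0.05 and 0.08 for all probe sets and -0.23, -0.05 and -0.08 for probe sets of like brightness. After quantile normalization 13, 10 and 11 fell, with medians of -0.28, -0.31 and -0.31, and after loess 13, 11 and 14, with medians of -0.24, -0.30 and -0.31. Of the amino acid transporters, SLC7A5 had -1.82, -1.18 and -1.28 in the same order, and SLC38A2 had -1.61, -1.55 and -1.604. Of the aminoacyl-tRNA synthetases, GARS1 had the values above, and SARS1, which charges serine to its tRNA, had -1.36, -0.85 and -1.11. All 4 were called in the 3 comparisons under each normalization. Not called were 14, 18 and 14 of the 34.

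The XBP1 and ATF6 branch of the endoplasmic reticulum stress response was listed for contrast. Of its 13 genes 4 fell and 2 rose in VITRO, 3 fell and 1 rose in IFOT-M, and 4 fell in IFOT-IM, with medians of 0.08, -0.06 and -0.25. Probe sets of like brightness had medians of -0.23, -0.05 and -0.08. The VITRO counts were 4 and 2 of 13 where 22.7% of all probe sets fell and 25.1% rose. DNAJC3, an inhibitor of eIF2 kinases, had -1.04 in VITRO, -0.88 with IFOT-M and -1.05 with IFOT-IM, and DNAJB9, a chaperone, had -0.70, -0.85 and -1.11. EDEM1, which sends misfolded glycoproteins to degradation, had -0.65, -0.87 and -0.70, and SEL1L, of the same degradation machinery, -0.47, -0.26 and -0.43. These 4 genes were all those that fell in VITRO, and the 2 that rose there changed less. In VITRO 6 of the 13 genes rose after either other normalization, where 12.9% of all probe sets rose after quantile and 13.6% after loess. After quantile 2 fell, where 16.6% of all probe sets fell, and after loess 3, where 14.8% fell.

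**Figure D4:**
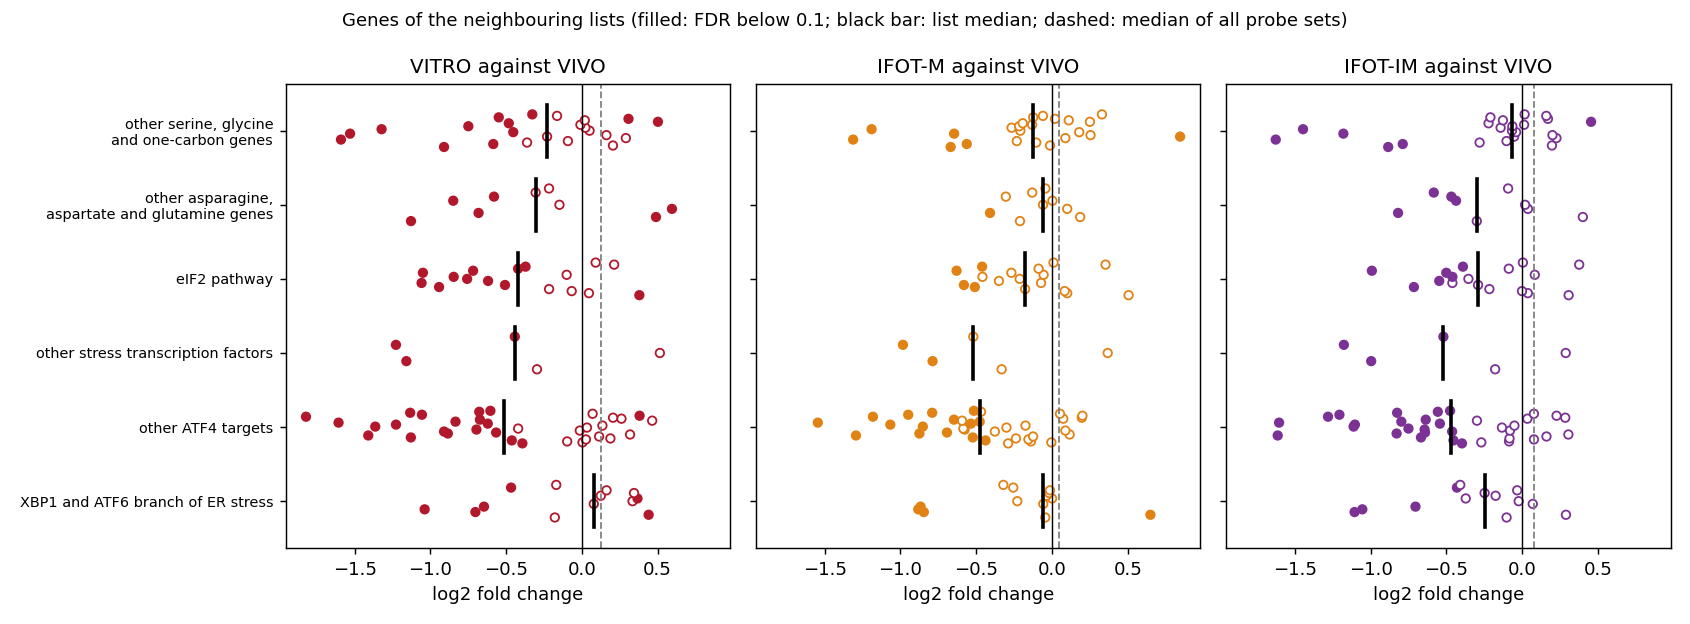
Log2 fold change against VIVO (horizontal axis) of every gene tested in the 6 neighbouring lists (vertical axis) in VITRO, IFOT-M and IFOT-IM, 1 point per gene; filled points have an FDR below 0.1, black bars are list medians and the dashed line is the median of all 24415 probe sets. The ATF4 targets had medians of -0.51, -0.47 and -0.47, and the XBP1 and ATF6 branch of 0.08, -0.06 and -0.25.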

How the data were processed

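Signals of 12 arrays were analysed, from 4 groups of 3 pools that the methods call independent biological replicates. The authors deposited log2 values that their methods describe as RMA background-corrected and quantile-normalized in Expression Console. The array medians and spreads differ by group, which goes against a quantile step over all arrays, so deposited-scale differences hold this shift. The log2 scale was read from the range of the values. Gene symbols came from the platform annotation. Of 26773 probe sets, the lowest 8.81% by mean signal (2358) were left out. The methods state the removal of about that share of low probe sets but no criterion, and mean signal was chosen here. The rest were fitted in 1 limma model (version 3.58.1, R 4.3.3; 8 residual degrees of freedom) with two-sided tests and Benjamini-Hochberg adjustment over all 24415. A call needed an FDR below 0.1, and a differentially expressed gene also a fold change above 2 and an unadjusted p below 0.05. The fit was tested on simulated data. Named were all 10 genes, up to 4 genes of each further list by size of change in VITRO, and the 3 nearest profiles of ASNS and PHGDH. The genes and lists were chosen with earlier results of these data known. Alternatives covered normalization, filter, variance model, array weights, RNA integrity, replicate block and left-out arrays. Promoter motifs and sequences were not analysed here. The number of arrays limits the precision.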

Additional observations from a re-analysis of the deposited data

Results flagged for a closer look

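In direct comparisons of 2 groups that had each been set against VIVO, 3 of the 10 genes differed with an FDR below 0.1 (limma), all higher in VITRO, where 8.38% of all probe sets were higher in VITRO against IFOT-M and 2.81% against IFOT-IM. In VITRO against IFOT-M the log2 differences were 0.98 for CHAC1, 0.43 for PSPH and 0.40 for PSAT1. In VITRO against IFOT-IM they were 0.80 for CHAC1, 0.46 for PSPH and 0.67 for PSAT1. Each was higher on all 3 VITRO arrays than on all 3 arrays of the transfer group. With only the 2 groups in the fit, or with the RNA integrity number as a covariate, 0 of the 3 calls in VITRO against IFOT-IM held. These pairs of comparisons share the VITRO arrays.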

How the results depend on the processing

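The number of the 10 genes called was 8 in VITRO against VIVO, and 5 with loess normalization or with the RNA integrity number as a covariate. In IFOT-M against VIVO it was 5, and 8 with array weights. In VITRO against IFOT-M it was 3, and 6 with loess normalization. In VITRO against IFOT-IM it was 3, 5 with loess normalization, and 0 with only the 2 groups compared in the fit or with the integrity number as a covariate. With each array left out in turn the counts ran from 6 to 8 in VITRO, 5 to 6 in IFOT-M and 7 to 8 in IFOT-IM against VIVO, from 1 to 3 in VITRO against IFOT-M, from 2 to 3 in VITRO against IFOT-IM, and stayed at 0 in IFOT-M against IFOT-IM. In VITRO against IFOT-M the count was 1 without VITRO replicate 1, IFOT-M replicate 2 or IFOT-M replicate 3. With an FDR below 0.05 the counts were 7, 5, 7, 2, 2 and 0 in the order of the comparisons in the report. After loess normalization 14.8% of all probe sets were lower and 13.6% higher in VITRO against VIVO. These shares were 5.39% and 5.6% in VITRO against IFOT-M, and 2.65% and 2.83% in VITRO against IFOT-IM. The share of all probe sets called was not counted under the remaining alternatives. Counts under them are therefore not read as results about the 10 genes.

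Signs of uncalled values, and that of the called ATF4 value in VITRO against VIVO, turned under some alternatives. After quantile normalization MTHFD2 was at 0.25 and ATF4 at 0.048 in VITRO against VIVO, PHGDH at -0.13 and ATF4 at 0.20 in VITRO against IFOT-M, and MTHFD2 at -0.054 and DDIT3 at -0.044 in IFOT-M against IFOT-IM. After loess normalization MTHFD2 was at 0.30, ATF4 at 0.25 and TRIB3 at -0.0020 in VITRO against VIVO, PHGDH at -0.11, ATF4 at 0.32 and DDIT3 at 0.0017 in VITRO against IFOT-M, and PSPH at -0.0012, MTHFD2 at -0.055 and DDIT3 at -0.038 in IFOT-M against IFOT-IM. With the integrity covariate PHGDH was at -0.071 and ASNS at -0.014 in VITRO against IFOT-M, and with array weights TRIB3 was at 0.041 in IFOT-IM against VIVO. With arrays left out, values ranged across 0 for TRIB3 in IFOT-M against VIVO (-0.21 to 0.073) and IFOT-IM against VIVO (-0.15 to 0.13), PHGDH in VITRO against IFOT-M (-0.16 to 0.14), ATF4 in VITRO against IFOT-IM (-0.051 to 0.15), and PSPH (-0.017 to 0.095) and MTHFD2 (-0.044 to 0.12) in IFOT-M against IFOT-IM. The cause was not tested.

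Among all called probe sets the share that was lower moved by over 10 points with loess normalization, to 55.3% in IFOT-M against VIVO (68.2% on the deposited values), to 49.0% in VITRO against IFOT-M (60.7%) and to 48.4% in VITRO against IFOT-IM (67.6%, and 57.2% with quantile normalization). Arrays of different groups share replicate numbers, but the deviations of same-numbered arrays from their group means correlated only at -0.083 to 0.117, so the numbers were not taken as pairs. With the replicate number as a block the counts of called genes were 8, 5, 7, 2, 3 and 0, in that order of comparisons, and the lost call was PSAT1 in VITRO against IFOT-M (0.40, FDR 0.1005).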
